A study of Homo sapiens with 18 samples.

Results

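CP70 is a platinum-resistant line selected in vitro from the human cancer line A2780, and the comparison of these 2 lines by RNA-seq is described here. The 6 libraries of the pair, 3 of A2780 and 3 of CP70, were taken by cell line name from 18 libraries of 6 lines, and all 12853 genes of the expression table were compared between them. The labels give A2780 as endometrial or ovarian cancer cells and as platinum sensitive, and both lines were grown in RPMI-1640 with glutamine and serum. The other 12 libraries came from 2 pairs of high-grade serous ovarian cancer lines, PEA1 with PEA2 and PEO1 with PEO4, each pair isolated from 1 patient before and after resistance developed. Because 1 resistant line was set against 1 parent, effects of drug selection and of separate growth in culture cannot be told apart, and nothing in the labels says whether the 3 libraries of a line came from separate cultures. The p-values therefore measure only the spread between these libraries.

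Cisplatin kills cells by binding to DNA and forming adducts within and between strands. Known routes to resistance include reduced uptake or raised efflux of the drug, its capture by thiols and metallothioneins, altered adduct repair or tolerance, loss of the mismatch repair that turns adducts into a death signal, and a blunted p53 response. A line kept under a drug for many passages can also change in lineage genes, adhesion and inherited silencing marks, since promoters rich in CG dinucleotides can be methylated and shut for many generations.

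The A2780 libraries held 2077384 to 3461770 reads on the listed genes and the CP70 libraries 3400531 to 5479562. Levels are given as reads per library or as CPM, read counts scaled to a common library size, and differences as log2 of CP70 over A2780, tested with limma across all 18 libraries with Benjamini-Hochberg adjustment over all 12853 genes. Counts without an adjustment for transcript length rank levels of 1 gene between lines, not levels of different genes. Of the 12853 genes, 11963 had over 3 reads in at least 1 of the 6 libraries. The median standard deviation among replicate libraries was 0.204 log2 units in A2780 and 0.120 in CP70. The Müllerian and serous markers PAX8, WT1 and MUC16 stood at 0 to 4 reads in each of the 6 libraries, whereas PAX8 held 379 to 1276 reads in the PEA libraries and 438 to 1037 in the PEO libraries. E-cadherin, CDH1, had 0 reads in all 6 libraries of the pair. Leukocyte markers were at or near 0 as well, with PTPRC (CD45) at 0 to 2 reads and CD74 at 1 to 4 reads.

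CP70 differed from A2780 in many genes and, for a sizeable group, between presence and absence. At an adjusted p below 0.05 and a log2 difference above 2, 728 genes (5.66% of those tested) were higher in CP70 and 437 (3.40%) were lower. For 1154 of these 1165 genes the 3 values of CP70 and the 3 of A2780 did not overlap. This separation follows largely from the rule, which chose the genes in the same 6 libraries, and it was not counted over all genes. The same holds for named genes below that were picked by their difference. The higher genes took 3.28% of all CP70 reads and 0.275% of A2780 reads, and the lower genes took 0.316% of CP70 reads and 3.45% of A2780 reads. The median log2 difference over all genes was -0.02.

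**Figure D1:**
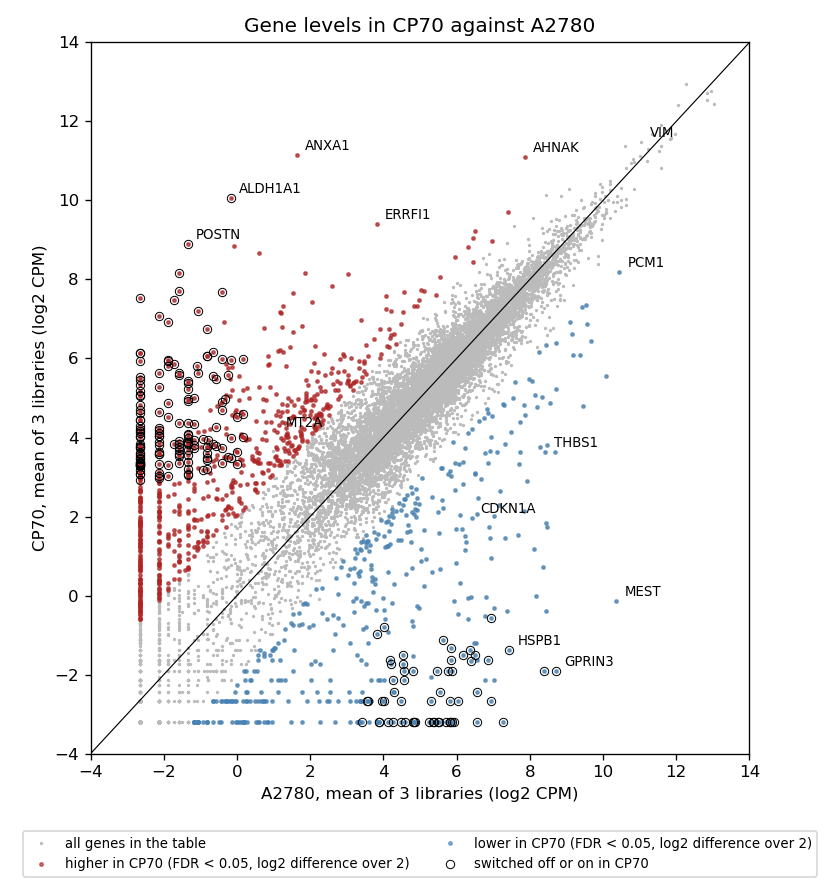
Mean level of each gene in A2780 (horizontal axis) and CP70 (vertical axis), both as log2 CPM over 3 libraries, with the line of equality. The 728 higher genes are in red, the 437 lower genes in blue and the genes switched off or on are ringed; most genes lie along the line, and ALDH1A1 and GPRIN3 lie near the empty edges.

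Among the genes with the most reads, the cytoskeletal and membrane-scaffold genes ANXA1 and AHNAK rose and the imprinted gene MEST fell. ANXA1, annexin A1, a phospholipid-binding regulator of inflammation, had 5, 14 and 11 reads in the A2780 libraries and 14418, 9479 and 8672 in the CP70 libraries (3.47 CPM in A2780 and 2296 CPM in CP70; log2 difference 9.54 ± 0.26 (SE), adjusted p = 9.72e-17). AHNAK, a giant scaffold protein under the plasma membrane, rose from 962, 752 and 532 reads to 14838, 7966 and 8768 (log2 difference 3.24 ± 0.13 (SE), adjusted p = 6.24e-14). ERRFI1, a feedback inhibitor of the EGF receptor, rose from 48, 72 and 24 reads to 3931, 2929 and 2644 (log2 difference 5.59 ± 0.14 (SE), adjusted p = 5.35e-17). All CP70 libraries were above all A2780 libraries for each of these genes. The hydroxylase ASPH (log2 difference 2.32) and the neurofilament heavy chain NEFH (2.73) were the other two of the higher genes with the most reads outside ALDH1A1.

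MEST, an imprinted gene expressed from the paternal copy in development, had 4446, 5404 and 2954 reads in A2780 and 6, 2 and 4 in CP70 (log2 difference -10.51 ± 0.29 (SE), adjusted p = 1.33e-16). The arginine and lysine transporter SLC7A2 fell from 3617, 4471 and 2441 reads to 302, 177 and 186 (log2 difference -4.54 ± 0.15 (SE), adjusted p = 3.57e-15). Nestin, NES, an intermediate filament of progenitor cells, fell from 3307, 2800 and 1860 reads to 557, 365 and 316 (log2 difference -3.24 ± 0.21 (SE), adjusted p = 7.89e-11). No library of CP70 reached the lowest library of A2780 in these genes. The centrosome protein PCM1 (log2 difference -2.27), the growth factor HGF (-2.20) and the atypical cadherin FAT1 (-2.67) were also among the genes with the most reads that fell.

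A gene was counted as switched off in CP70 when each CP70 library held at most 3 reads and each A2780 library at least 30, and as switched on in the reverse case, with an adjusted p below 0.05. By this count 59 genes (0.459% of those tested) were switched off and 147 (1.14%) switched on. In 22 of the 59 no CP70 library held a read, and in 43 of the 147 no A2780 library held one. The level of 3 reads per library was 0.985 CPM in A2780 and 0.664 CPM in CP70. The switched-off genes stood in A2780 at 16.4 to 632 times the 3-read level of CP70 (median 63.3), and the switched-on genes in CP70 at 7.72 to 1085 times that of A2780 (median 16.6). A gene without a read in 1 line is given as at least its fold over 3 reads per library, and a gene with few reads there as the ratio of summed reads, scaled to library size, with its exact 95% interval, which covers counting error only. In a culture, fewer cells with a transcript and less transcript in every cell cannot be told apart.

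The switched-off genes whose lowest A2780 library had the highest CPM included a small heat shock protein and several genes of neural and muscle development. GPRIN3, a G-protein regulator of neurite outgrowth (chr4:90157534-90228951 in hg19), had 1322, 1840 and 924 reads in A2780 and 1, 0 and 2 in CP70, 1986-fold (interval 679 to 9634) lower. HSPB1, the small heat shock protein HSP27 (chr7:75931990-75933612), had 714, 581 and 389 reads in A2780 and 2, 1 and 1 in CP70, 614-fold (interval 239 to 2256) lower. MEF2C, a transcription factor of muscle and neural differentiation, had 349, 552 and 257 reads in A2780 and 1, 1 and 1 in CP70, 563-fold (interval 192 to 2733) lower. These genes were thus read at least 257 times in each A2780 library and at most 2 times in any CP70 library.

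The GTPase-activating protein gene ARHGAP28 (1634-fold, interval 559 to 7926), otoancorin, OTOA (at least 233-fold), the axon guidance receptor ROBO2 (217-fold, interval 110 to 503), the GABA-synthesising enzyme GAD1 (672-fold, interval 186 to 5559) and TDRD1, a germline gene of the piRNA pathway (at least 143-fold), were lower in the same way. TDRD1 had 344, 343 and 224 reads in the A2780 libraries and 0, 0 and 0 in those of CP70. Of the 5 cancer-testis genes in the table, 0 were higher and 2 (40%) lower (all genes tested: 11.6% higher and 7.57% lower). Beside TDRD1 the lower gene was PRAME, a repressor of retinoic acid receptor signalling. PRAME fell from 1034, 1073 and 638 reads to 196, 148 and 129 (log2 difference -3.07 ± 0.19 (SE), adjusted p = 5.72e-11). OTOA shares its sequence with the pseudogene OTOAP1, which was also switched off, so the reads of the pair are uncertain between them.

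Among the switched-on genes, those whose lowest CP70 library had the highest CPM included genes for a retinaldehyde dehydrogenase and for secreted proteins. ALDH1A1, which oxidises retinaldehyde and other aldehydes and is used as a marker of stem-like tumour cells (chr9:75515587-75695358 in hg19), had 2, 2 and 3 reads in A2780 and 6423, 4573 and 4068 in CP70, 1476-fold (interval 716 to 3671) higher. POSTN, the matrix protein periostin, had 0, 1 and 2 reads in A2780 and 2720, 2073 and 1891 in CP70, 1528-fold (interval 523 to 7411) higher. IGFBP3, which binds insulin-like growth factors (chr7:45951844-45961473), had 1, 1 and 0 reads in A2780 and 1800, 1213 and 1058 in CP70, 1396-fold (interval 386 to 11531) higher. In each of the 3 genes the CP70 libraries were far apart from the A2780 libraries and close to one another.

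Further switched-on genes were TNFRSF19, a receptor of the tumour necrosis factor family (1004-fold, interval 278 to 8297), MARCKS, a membrane-bound kinase substrate (330-fold, interval 151 to 899), ZPLD1 (at least 189-fold), the retrotransposon-derived imprinted gene PEG10 (573-fold, interval 196 to 2781) and the potassium channel KCNJ2 (469-fold, interval 160 to 2275). ZPLD1 had no read in any A2780 library and 1073, 808 and 728 reads in the CP70 libraries. PEG10 overlaps SGCE on the opposite strand, and SGCE was higher as well (at least 5.44-fold).

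**Figure D2:**
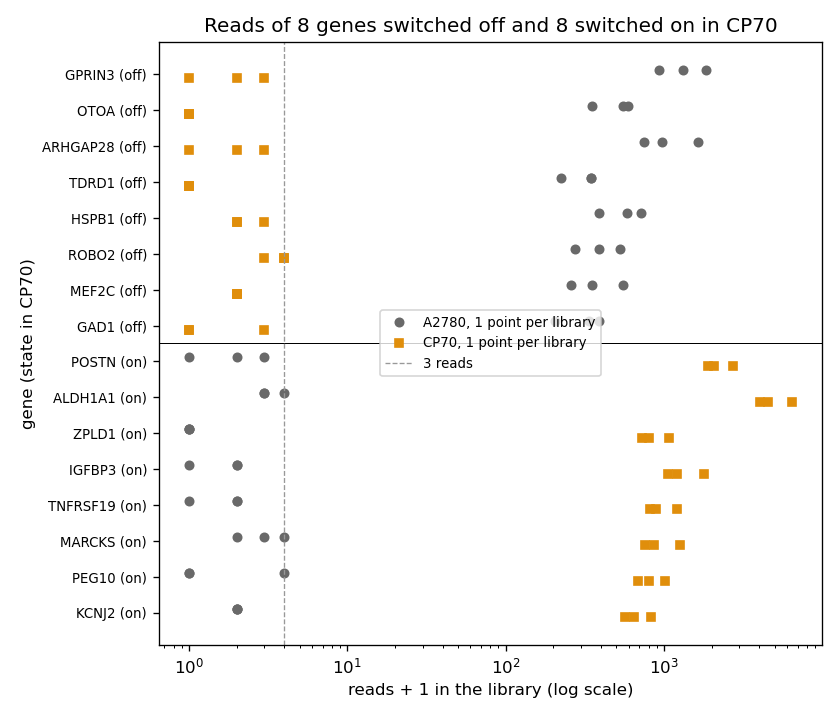
Reads per library (plus 1, log scale) of the 8 switched-off and 8 switched-on genes whose lowest library had the highest CPM in the line that read them, with 1 point per library of A2780 and CP70 and a dashed line at 3 reads. Every point of the empty line lies at or left of the dashed line, and the points of the other line lie between 203 and 6423 reads.

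The 250 bases before the RefSeq start of HSPB1 (chr7:76302423-76302672, plus strand), IGFBP3 (chr7:45921273-45921522, minus strand) and ALDH1A1 (chr9:72953054-72953303, minus strand; all GRCh38.p14) are shown because they give a switched-off gene and a pair of switched-on genes that differ in CG density, with each CG in capitals.
HSPB1: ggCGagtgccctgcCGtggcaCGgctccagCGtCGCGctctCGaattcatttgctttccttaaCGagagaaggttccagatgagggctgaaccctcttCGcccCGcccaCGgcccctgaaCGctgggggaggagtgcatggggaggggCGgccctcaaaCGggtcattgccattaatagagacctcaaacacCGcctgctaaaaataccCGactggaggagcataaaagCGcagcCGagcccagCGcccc
IGFBP3: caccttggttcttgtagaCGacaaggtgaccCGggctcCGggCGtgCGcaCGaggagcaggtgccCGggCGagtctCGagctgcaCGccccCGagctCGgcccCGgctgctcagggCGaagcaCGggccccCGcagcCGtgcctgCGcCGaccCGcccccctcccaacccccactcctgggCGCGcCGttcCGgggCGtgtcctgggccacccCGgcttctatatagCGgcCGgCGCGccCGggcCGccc
ALDH1A1: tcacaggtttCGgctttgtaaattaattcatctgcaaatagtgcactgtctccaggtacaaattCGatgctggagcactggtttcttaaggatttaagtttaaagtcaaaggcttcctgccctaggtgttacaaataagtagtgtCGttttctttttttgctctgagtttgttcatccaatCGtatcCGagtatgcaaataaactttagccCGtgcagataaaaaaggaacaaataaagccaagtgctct

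The CG dinucleotide occurred 19 times in the HSPB1 sequence, 32 times in that of IGFBP3 and 6 times in that of ALDH1A1. A CG reads the same on both strands. In RefSeq windows from 250 bases before to 50 after the start, 95.8% of 27305 promoters held a CG and the median number was 14, and over the genes of the table with a matched promoter it was 27. The same windows held 22 CG for HSPB1, 32 for MEF2C and 29 for GAD1 among the switched-off genes, and 36 for IGFBP3, 39 for KCNJ2, 7 for ALDH1A1 and 0 for ZPLD1 among the switched-on genes. Both CG-dense and CG-poor starts therefore occurred, the latter also for ARHGAP28 with 0 CG among the switched-off genes. A promoter was matched for 69.5% of the switched-off genes, 83.7% of the switched-on genes and 74.8% of all genes. Among the matched promoters, 68.3%, 67.5% and 83.6% held at least 15 CG in these windows. These shares leave out the unmatched genes, and the difference between the sets was not tested. DNA methylation was not measured in these libraries.

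Target genes of p53, the transcription factor that links DNA damage to arrest and death, were lower in CP70. Of 36 target genes in the table, 14 were lower and 3 higher at a log2 difference above 1 (all genes tested: 7.57% lower and 11.6% higher), with a median log2 difference of -0.79 against -0.02 over all genes. CDKN1A, the cell cycle inhibitor p21 (chr6:36644237-36655114 in hg19), had 342, 283 and 204 reads in A2780 and 24, 18 and 12 in CP70 (log2 difference -4.48 ± 0.36 (SE), adjusted p = 3.09e-09). GDF15, a stress-induced cytokine, had 56, 64 and 44 reads in A2780 and 6, 1 and 1 in CP70 (log2 difference -5.03 ± 0.66 (SE), adjusted p = 3.19e-06). The death receptor EDA2R had 35, 46 and 24 reads in A2780 and 2, 4 and 1 in CP70 (log2 difference -4.30 ± 0.59 (SE), adjusted p = 5.47e-06). Every CP70 library lay below every A2780 library for all 3 genes, although CP70 was sequenced more deeply.

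The other lower members were CYFIP2 (log2 difference -3.94), TP53INP1 (-2.65), PLK2 (-2.53), RPS27L (-1.94), C12orf5, also called TIGAR (-1.90), TP53I3 (-1.80), SESN2 (-1.60), ZMAT3 (-1.52), DDB2 (-1.39), FDXR (-1.06) and SESN1 (-1.01). MDM2, the ligase that degrades p53, fell by less (log2 difference -0.68 ± 0.09 (SE), adjusted p = 6.92e-06). The higher members were PERP, a desmosome-associated effector that rose from 2, 4 and 1 reads to 217, 136 and 129 (log2 difference 5.38 ± 0.21 (SE), adjusted p = 3.63e-14), PHLDA3 (12.3-fold, interval 3.18 to 106) and PMAIP1 (6.17-fold, interval 1.48 to 54.9). PMAIP1 rested on 1, 0 and 1 reads against 3, 11 and 4, the lines overlapped, and it did not pass under quantile normalization. The death receptor gene FAS passed the adjusted p with a difference under 1 (log2 difference 0.61 ± 0.15 (SE), adjusted p = 0.00291).

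**Figure D3:**
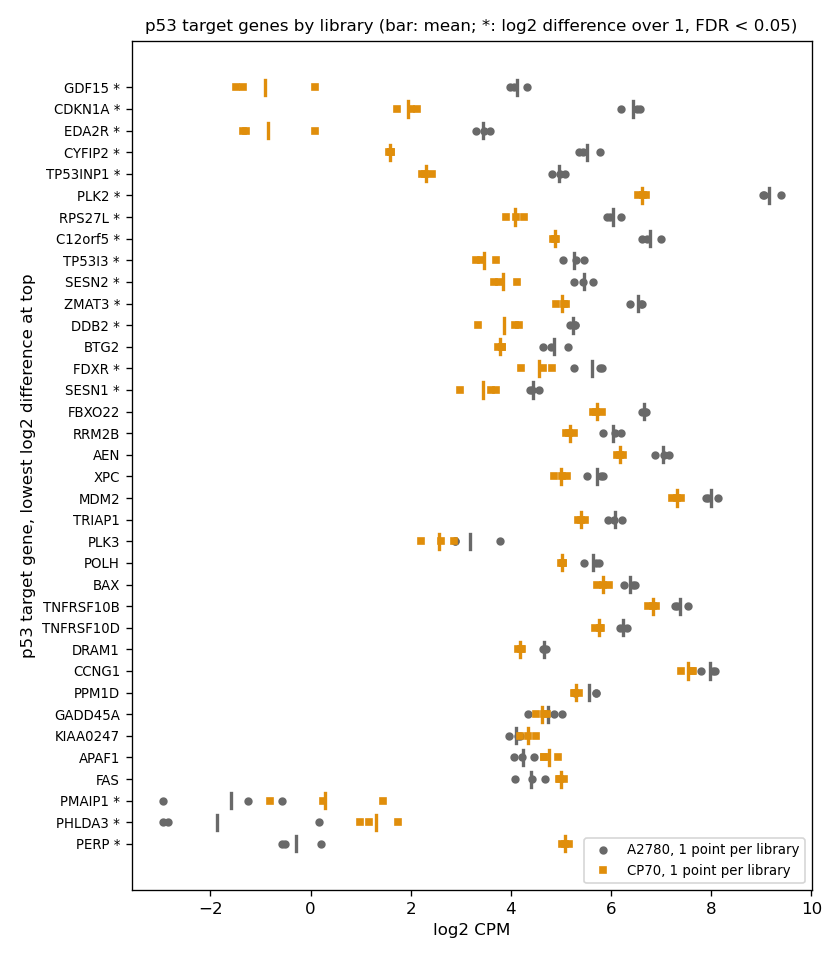
Level of each p53 target gene in log2 CPM (horizontal axis) in the 3 A2780 and 3 CP70 libraries, with a bar at the mean and the genes ordered by their log2 difference from lowest (top) to highest. The libraries of the 2 lines are apart for the 14 starred lower genes, from GDF15 at -5.03 to SESN1 at -1.01. Stars were set by the difference in these same libraries, and unstarred genes such as BTG2 and MDM2 are apart too. At the bottom, 3 starred genes go the other way.

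Genes of retinoid metabolism and stem-like states were mostly higher where they differed. Of 24 in the table, 9 (37.5%) were higher and 2 (8.33%) lower (all genes tested: 11.6% higher and 7.57% lower). The median log2 difference was 0.59, or 0.94 over the 18 with over 3 reads in a library. Beside ALDH1A1, RARB, a retinoic acid receptor that is itself a retinoic acid target, had 1, 2 and 0 reads in A2780 and 76, 75 and 54 in CP70, 46.9-fold (interval 15.8 to 229) higher. DHRS3, a retinaldehyde reductase, rose from 10, 10 and 4 reads to 395, 219 and 202 (log2 difference 4.48 ± 0.19 (SE), adjusted p = 1.04e-13). CYP26A1, which degrades retinoic acid (log2 difference 3.22), the carrier CRABP2 (2.75) and the dehydrogenases ALDH1A3 (9.26-fold, interval 4.07 to 26.0) and RDH10 (log2 difference 1.76) were higher too. In contrast, STRA6, the receptor through which cells take up retinol, had 98, 77 and 44 reads in A2780 and 1, 0 and 0 in CP70, 319-fold (interval 56.7 to 12670) lower. The receptors RARA (log2 difference -0.15, adjusted p = 0.54) and RXRA (0.04, adjusted p = 0.902) did not pass. PROM1 and CD44, called lower and higher, had at most 3 reads in every library and carry no measurable level.

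Few DNA repair genes were called, and the share called lower was near that of all genes (all genes tested: 7.57% lower and 11.6% higher). In mismatch repair, 1 of 8 genes (12.5%) was lower and 0 higher. In nucleotide excision repair, which removes platinum adducts, 2 of 19 (10.5%) were lower and 0 higher. In the Fanconi and homologous recombination genes 2 of 35 (5.71%) were lower and 0 higher. The median log2 differences were -0.29, -0.09 and -0.29. The lower genes were MLH3 (-1.42), the endonuclease ERCC5 (-1.79), the damage sensor DDB2 (-1.39), FANCM (-1.22) and RAD51B (-1.20). Among 8 translesion polymerase genes, REV3L, the catalytic subunit of polymerase zeta, was higher (log2 difference 1.08 ± 0.14 (SE), adjusted p = 2.84e-06) and POLI lower (log2 difference -1.28 ± 0.29 (SE), adjusted p = 0.00119).

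BRCA1 (-0.42, adjusted p = 0.00564), BRCA2 (0.19, adjusted p = 0.313) and ERCC1 (0.31, adjusted p = 0.185) differed by less than 1 log2 unit. MSH6 (-0.37) and PMS2 (0.49) passed the adjusted p, and both lost it when single libraries were left out, MSH6 without A2780 library 3 or CP70 library 2 (-0.34 and -0.35) and PMS2 without A2780 library 2 or 3 or CP70 library 1 or 3 (0.46 to 0.49).

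Most transporters linked to platinum were not called, as was true of all genes tested (11.6% higher and 7.57% lower). SLC31A1, the copper importer CTR1, had 273, 335 and 160 reads in A2780 and 455, 318 and 269 in CP70 (log2 difference -0.08 ± 0.13 (SE), adjusted p = 0.653), and the lines overlapped once scaled for depth. The copper exporters ATP7A (log2 difference -0.51 ± 0.24 (SE), adjusted p = 0.0956) and ATP7B (log2 difference -0.49 ± 0.37 (SE), adjusted p = 0.313) did not pass. Of 12 genes of copper transport and platinum uptake, 2 (16.7%) were higher and 1 (8.33%) lower. LRRC8D, the subunit of the volume-regulated anion channel that admits cisplatin, rose from 62, 98 and 50 reads to 269, 210 and 186 (log2 difference 1.14 ± 0.15 (SE), adjusted p = 4.29e-06), whereas its obligate partner LRRC8A did not pass (log2 difference -0.17 ± 0.15 (SE), adjusted p = 0.41). The other higher gene, the organic cation exporter SLC47A1 (log2 difference 1.47 ± 0.50 (SE), adjusted p = 0.0242), lost its call without A2780 library 2 (1.25) and without each CP70 library in turn (1.43 at the lowest). The copper chaperone CCS was lower (log2 difference -1.20 ± 0.31 (SE), adjusted p = 0.00343). Among 9 ABC transporters, 1 was higher and 1 lower (11.1% each). ABCA3 was higher (log2 difference 1.51 ± 0.22 (SE), adjusted p = 1.26e-05) and ABCC4, which exports cyclic nucleotides, was lower (log2 difference -2.11 ± 0.15 (SE), adjusted p = 2.89e-10).

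Thiol and metal-binding genes were split. Of 30 genes of glutathione metabolism and the oxidative stress factor NRF2, 5 (16.7%) were higher and 5 (16.7%) lower (median log2 difference 0.31). Over all genes tested, 11.6% were higher and 7.57% lower. The membrane-bound glutathione transferase MGST1 had 210, 236 and 112 reads in A2780 and 0, 0 and 0 in CP70, at least 85.5-fold lower. OSGIN1, an oxidative stress gene, had 2, 1 and 0 reads in A2780 and 95, 78 and 65 in CP70, 54.4-fold (interval 18.4 to 266) higher. HMOX1, heme oxygenase 1, rose from 37, 43 and 25 reads to 299, 218 and 206 (log2 difference 2.23 ± 0.33 (SE), adjusted p = 1.48e-05). The groups did not overlap in any of these genes. The cystine importer SLC7A11 was higher (1.27), and MGST2 (at least 7.45-fold) and GSTO2 (log2 difference -2.16) were lower. The transferase GSTP1 differed by 0.34 (adjusted p = 0.00546). Of 7 metallothioneins, which bind metals through cysteines, 2 (28.6%) were higher and 0 lower. MT2A rose from 4, 6 and 10 reads to 101, 73 and 70 (log2 difference 3.03 ± 0.31 (SE), adjusted p = 1.14e-07) and MT1X from 9, 5 and 3 to 32, 34 and 23 (log2 difference 1.84 ± 0.42 (SE), adjusted p = 0.0014), the latter not passing under quantile normalization. MT1E, MT1G, MT1L and MT1M had 0 reads in all 6 libraries.

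Interferon-stimulated and antigen presentation genes were more often higher than lower, but not as one block. Of 55 interferon-stimulated genes, 24 (43.6%) were higher and 7 (12.7%) lower (median log2 difference 0.49). Of 18 class I presentation genes 9 (50%) were higher and 0 lower (median 1.10). The shares of all genes tested were 11.6% higher and 7.57% lower. Over the members with over 3 reads in a library the medians were 1.32 (44 genes) and 1.42 (17 genes). SP100, a nuclear body protein, had 0, 0 and 0 reads in A2780 and 61, 38 and 45 in CP70, at least 10.5-fold higher. HERC6 (26.7-fold, interval 10.2 to 99.4), IFI44L (at least 2.62-fold), the double-stranded RNA sensor IFIH1 (16.5-fold, interval 2.68 to 677) and the transcription factor IRF1 (log2 difference 2.01) were also higher.

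The lower members included restriction factors at the cell membrane. IFITM1, which blocks virus entry, had 62, 84 and 24 reads in A2780 and 1, 1 and 0 in CP70, 124-fold (interval 33.8 to 1032) lower. BST2, tetherin, fell from 325, 296 and 268 reads to 32, 10 and 21 (log2 difference -4.48 ± 0.40 (SE), adjusted p = 1.54e-08). IFIT1, an RNA-binding effector, fell from 594, 692 and 411 reads to 375, 299 and 271 (log2 difference -1.38 ± 0.20 (SE), adjusted p = 8.70e-06). No CP70 library reached the A2780 range in CPM. ISG15 (-0.87, adjusted p = 0.00373) was lower by under 1 log2 unit.

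In antigen presentation, HLA-B rose from 11, 15 and 5 reads to 217, 117 and 118 (log2 difference 3.31 ± 0.20 (SE), adjusted p = 3.54e-11) and the class I transactivator NLRC5 from 11, 1 and 7 to 96, 64 and 58 (log2 difference 3.27 ± 0.52 (SE), adjusted p = 3.60e-05). HLA-C (log2 difference 2.38) and the peptide transporter TAP1 (2.88) were higher as well. The class I light chain B2M did not pass (log2 difference 0.12 ± 0.07 (SE), adjusted p = 0.182). Reads of HLA genes are uncertain between paralogs and depend on the alleles a line carries. The immunoproteasome subunit PSMB9, with 0, 1 and 0 against 39, 25 and 18 reads (56.2-fold, interval 9.81 to 2248), overlaps PSMB8 and TAP1 on the opposite strand.

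CP70 gained transcripts of keratins and desmosomes without gaining E-cadherin, and the mesenchymal genes went both ways. Of 43 epithelial genes, 15 (34.9%) were higher and 4 (9.30%) lower (all genes tested: 11.6% higher and 7.57% lower). Their median log2 difference was 0.22. Only 23 of the 43 had over 3 reads in a library, among which 14 were higher and 1, SPINT2, lower (median 1.54). DSP, desmoplakin, had 0, 0 and 1 reads in A2780 and 227, 170 and 151 in CP70, 376-fold (interval 67.2 to 14871) higher. KRT18 had 3, 3 and 3 reads in A2780 and 407, 257 and 242 in CP70, 69.0-fold (interval 36.2 to 151) higher, and its partner KRT8, which overlaps it on the opposite strand, was 41.6-fold (interval 14.0 to 204) higher. EPCAM, the epithelial cell adhesion molecule, rose from 3, 5 and 2 reads to 95, 59 and 68 (log2 difference 3.77 ± 0.18 (SE), adjusted p = 6.09e-13). In all of these the A2780 libraries were at 0 to 5 reads.

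Of 28 mesenchymal genes, 8 (28.6%) were higher and 9 (32.1%) lower (all genes tested: 11.6% higher and 7.57% lower). Their median log2 difference was -0.07. The related repressors TWIST1 and TWIST2 moved in opposite directions. TWIST2 had 0, 0 and 0 reads in A2780 and 92, 53 and 57 in CP70, at least 14.5-fold higher, while TWIST1 fell from 108, 94 and 56 reads to 17, 17 and 9 (log2 difference -3.10 ± 0.45 (SE), adjusted p = 1.13e-05). SNAI2, the repressor Slug, fell from 128, 230 and 106 reads to 7, 9 and 5 (log2 difference -4.88 ± 0.55 (SE), adjusted p = 3.61e-07). N-cadherin, CDH2, fell from 349, 520 and 277 reads to 216, 153 and 161 (log2 difference -1.63 ± 0.27 (SE), adjusted p = 6.62e-05). THY1, a surface glycoprotein, rose from 14, 10 and 4 reads to 189, 125 and 113 (log2 difference 3.43 ± 0.45 (SE), adjusted p = 3.33e-06). Vimentin, VIM, stood at 2119 CPM in A2780 and 2883 CPM in CP70 (log2 difference 0.45, adjusted p = 0.00938) and did not pass under quantile normalization (0.40). ZEB1 did not pass (log2 difference -0.76 ± 0.39 (SE), adjusted p = 0.128) but did with the pair fitted alone, with voom weights and with 2 reads added (-0.76, -0.78 and -0.76).

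Markers of other cell types were examined beside these changes. Of 6 endothelial and fibroblast markers in the table, 3 (50%) were higher and 0 lower (all genes: 11.6% higher and 7.57% lower). The higher ones were the small proteoglycans DCN (12, 4 and 6 reads in A2780, 150, 105 and 80 in CP70) and LUM (4, 6 and 0 and 72, 41 and 47) together with THY1. The endothelial cadherin CDH5 had 0 reads in all 6 libraries, COL1A1 had 13 to 32 reads, and COL3A1 was well read in both lines (626 CPM in A2780 and 872 CPM in CP70; adjusted p = 0.234). Whether these markers have a part in the mesenchymal and matrix results was not tested.

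Ovarian and endometrial lineage genes gave little to compare, since 15 of 29 had at most 3 reads in every library. In the list 4 (13.8%) were higher and 4 (13.8%) lower (all genes tested: 11.6% higher and 7.57% lower). PAX2, a transcription factor of the kidney and the Müllerian duct, fell from 51, 30 and 26 reads to 6, 2 and 3 (log2 difference -3.73 ± 0.55 (SE), adjusted p = 1.50e-05). LIN28B, an oncofetal repressor of let-7 microRNAs, fell from 1155, 1547 and 763 reads to 520, 441 and 383 (log2 difference -1.87 ± 0.48 (SE), adjusted p = 0.00353). LHX2 rose from 2, 4 and 2 reads to 77, 34 and 38 (log2 difference 3.39 ± 0.39 (SE), adjusted p = 5.03e-07). The A2780 and CP70 values did not overlap in these genes. The oncofetal genes HMGA2 (-0.04, adjusted p = 0.856) and IGF2BP1 (-0.44, adjusted p = 0.459) were well read in both lines and did not pass.

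Extracellular matrix genes moved in both directions. Of 66 matrix genes, 19 (28.8%) were higher and 22 (33.3%) lower, with a median log2 difference of -0.02. Of 19 integrins 8 (42.1%) were higher and 0 lower (median 0.37). The shares of all genes tested were 11.6% higher and 7.57% lower. Beside POSTN and IGFBP3, the growth factor-binding protein IGFBP6 had 1, 2 and 1 reads in A2780 and 693, 446 and 392 in CP70, 262-fold (interval 102 to 965) higher. The laminin chain LAMA1 fell from 396, 440 and 237 reads to 0, 4 and 0 (log2 difference -8.93 ± 0.65 (SE), adjusted p = 6.90e-10), whereas the laminin chains LAMA2 (165-fold, interval 29.4 to 6555) and LAMB1 (log2 difference 4.20) were higher. COL6A3 fell from 361, 318 and 187 reads to 0, 3 and 4 (log2 difference -7.68 ± 0.75 (SE), adjusted p = 5.05e-08), whereas the basement membrane collagen COL4A1 (at least 19.9-fold) and COL1A2 (47.1-fold, interval 15.9 to 230) were higher. IGFBP5 was at least 15.9-fold lower. The integrin genes ITGA2 (9.11-fold, interval 4.25 to 23.3), ITGA6 (log2 difference 1.52), ITGB5 (1.42) and ITGAV (1.21) were higher. ITGA1 and ITGB4 were called on 2 to 11 reads in the CP70 libraries, and ITGB2 had at most 3 reads in every library.

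Genes that specify position in the embryo changed by cluster. HOX genes lie in clusters and encode transcription factors of the body axis. Of 15 HOX genes in the table, 9 (60%) were higher and 3 (20%) lower (all genes tested: 11.6% higher and 7.57% lower). Their median log2 difference was 1.81. Of the HOXB genes, 6 were higher, from HOXB4 (1.35) to HOXB9, which had 0, 0 and 0 reads in A2780 and 185, 181 and 140 in CP70 (at least 37.4-fold), while HOXB3 (0.99) fell just short of 1 and HOXB2 did not pass (-0.02, adjusted p = 0.914). HOXA3 (0, 0 and 0 against 56, 51 and 34 reads) and HOXA5 (0, 0 and 0 against 48, 40 and 30 reads) were switched on, and HOXA10 was called higher on 4, 2 and 1 reads against 0, 0 and 0. The 3 lower genes were HOXC9 (log2 difference -2.37 ± 0.63 (SE), adjusted p = 0.00479), HOXC8 (log2 difference -1.51 ± 0.32 (SE), adjusted p = 7.25e-04) and HOXC6 (log2 difference -2.07 ± 0.66 (SE), adjusted p = 0.0164), the last of which lost its call without CP70 library 1 (-1.98). HOXA3 and HOXA5, HOXB7 and HOXB9, and the HOXC genes overlap in the annotation on the same strand, so their reads are not independent.

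Among 45 homeobox and T-box genes outside the HOX clusters, 13 (28.9%) were higher and 12 (26.7%) lower (all genes: 11.6% higher and 7.57% lower). BARX1 (0, 1 and 0 against 312, 223 and 169 reads), SATB1 (2, 0 and 0 against 323, 255 and 212) and TBX20 (0, 0 and 0 against 72, 52 and 46) were switched on. MEIS1, a cofactor of HOX proteins, fell from 255, 400 and 183 reads to 4, 4 and 4 (log2 difference -6.44 ± 0.19 (SE), adjusted p = 6.11e-16). DLX5 had 245, 360 and 129 reads in A2780 and 2, 3 and 0 in CP70, 214-fold (interval 91.3 to 661) lower, and DLX1 (log2 difference -3.30), DLX2 (-3.30) and DLX6 (-4.32) were also lower.

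Imprinted genes, which are normally read from 1 parental copy, held some of the widest differences in either direction. Of 27 in the table, 8 (29.6%) were higher and 6 (22.2%) lower (all genes tested: 11.6% higher and 7.57% lower). PEG10 (0, 0 and 3 against 1018, 806 and 683 reads), PPP1R9A (1, 0 and 2 against 221, 138 and 169) and ATP10A (0, 0 and 0 against 158, 91 and 118) were switched on, and the non-coding RNA H19 was higher (6.07). MEST and DLX5, described above, were lower, with GRB10 (-1.58) and DIRAS3 (3, 5 and 1 against 0, 0 and 1 reads). Which parental copy was read was not measured.

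Neuronal genes also went both ways. Of 43, 17 (39.5%) were higher and 7 (16.3%) lower (all genes tested: 11.6% higher and 7.57% lower). INA, alpha-internexin, rose from 4, 5 and 4 reads to 2469, 1700 and 1572 (log2 difference 8.05 ± 0.66 (SE), adjusted p = 3.65e-09). The synaptic adhesion gene NLGN1 had 0, 0 and 0 reads in A2780 and 432, 287 and 274 in CP70, at least 71.5-fold higher. The granin SCG2 rose from 1, 1 and 6 reads to 747, 531 and 435 (log2 difference 7.28 ± 0.66 (SE), adjusted p = 1.93e-08). PAX6, a transcription factor of eye and brain, fell from 420, 511 and 262 reads to 15, 8 and 5 (log2 difference -5.97 ± 0.23 (SE), adjusted p = 2.56e-14), and GRIN2D, a glutamate receptor subunit, also fell (-4.05). With ROBO2 and NES these lower genes stood beside the higher neurofilament NEFH.

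Families that lie in tandem arrays were changed over neighbouring genes. Of 29 clustered protocadherins, adhesion molecules read from alternative promoters on chromosome 5, 16 (55.2%) were lower and 3 (10.3%) higher (median log2 difference -1.42). Among all genes tested, 7.57% were lower and 11.6% higher. The lower ones were weakly read in A2780, for example PCDHB16 with 6, 7 and 6 reads against 1, 0 and 1 in CP70. PCDHAC1 (13, 10 and 4 against 50, 43 and 31 reads) and PCDHAC2 (5, 6 and 3 against 55, 35 and 33) were higher. The gamma genes share exons, and their reads cannot be assigned with certainty.

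Of 179 zinc finger genes on chromosome 19, most of which encode KRAB repressors, 34 were higher and 10 lower (median log2 difference 0.03). Among those with over 3 reads in a library, 34 were higher and 5 lower. ZNF614 (0, 0 and 0 against 115, 99 and 89 reads), ZNF492 (0, 0 and 0 against 77, 46 and 42) and ZNF85 (0, 0 and 0 against 59, 40 and 36) were switched on, and ZNF726 went from 28, 42 and 26 reads to none. Under quantile normalization 20 in place of 34 were higher.

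Of 66 replication-dependent histone genes, 14 (21.2%) were lower and 2 (3.03%) higher (all genes tested: 7.57% lower and 11.6% higher). Among the 66, 5 were switched off. HIST1H3G had 567, 323 and 312 reads in A2780 and 1, 0 and 0 in CP70 (1753-fold, interval 314 to 69286), HIST1H2BI 221, 207 and 136 and 0, 0 and 0 (at least 88.6-fold) and HIST1H3I 170, 164 and 104 and 0, 0 and 0 (at least 68.7-fold). The median log2 difference of the histone list was -0.11. Histone genes are near copies of one another, and reads that fit several of them are uncertain.

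**Figure D4:**
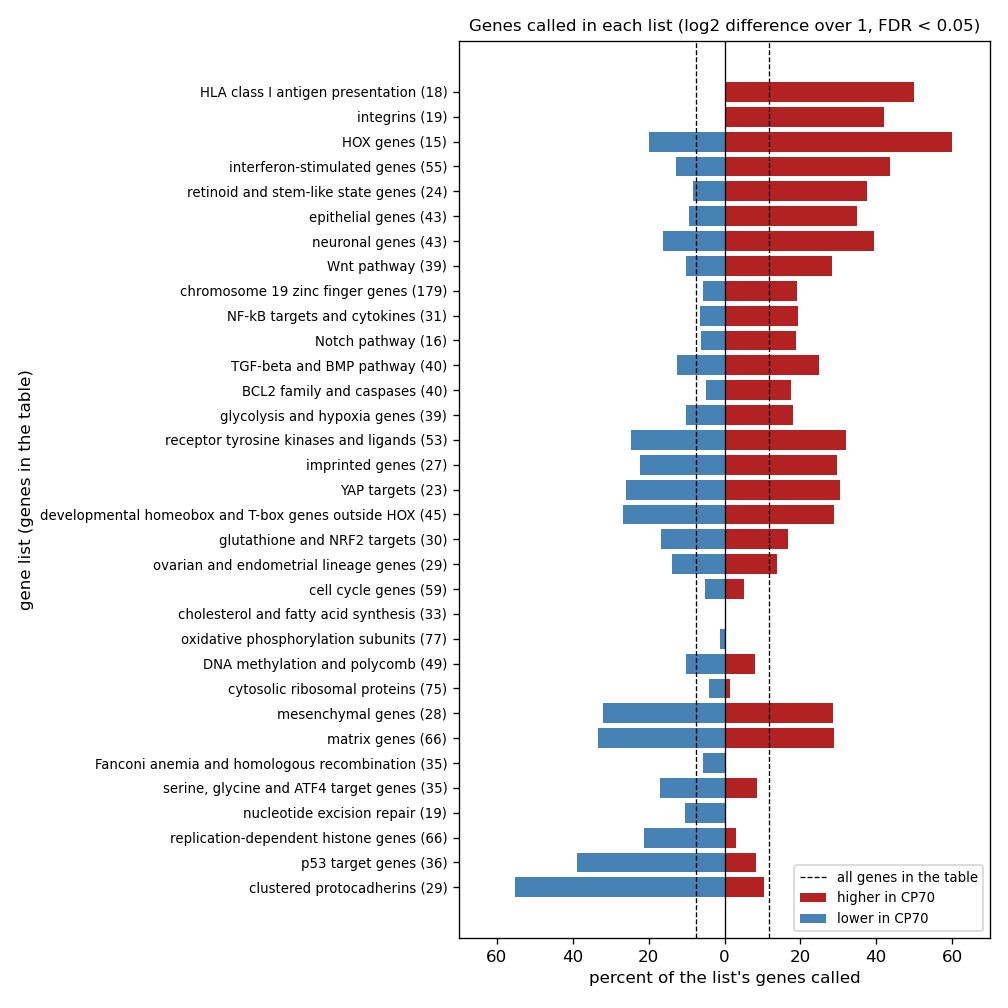
Percent of the genes in each list that were higher (red, to the right) or lower (blue, to the left) in CP70 at a log2 difference over 1 and an adjusted p below 0.05, for lists with at least 15 genes in the table. The dashed lines mark all 12853 genes, at 11.6% higher and 7.57% lower; HOX genes reach 60% higher, clustered protocadherins 55.2% lower, and cholesterol genes show no bar.

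Growth factor signalling genes differed among both ligands and receptors. Of 53 receptor tyrosine kinases and ligands, 17 (32.1%) were higher and 13 (24.5%) lower (all genes tested: 11.6% higher and 7.57% lower). Their median log2 difference was -0.01. Among the ligands, PDGFB rose from 4, 4 and 0 reads to 169, 134 and 91 (log2 difference 5.33 ± 0.45 (SE), adjusted p = 5.54e-09) and PDGFA was 25.4-fold (interval 11.5 to 69.9) higher, whereas the KIT ligand KITLG (log2 difference -3.07) and the lymphatic growth factor VEGFC (-2.81) fell. Among the receptors, ERBB3 rose from 5, 4 and 0 reads to 148, 128 and 126 (log2 difference 5.30 ± 0.48 (SE), adjusted p = 1.81e-08), EGFR (3.08) and MET (1.64) were higher, and AXL (-1.14) and IGF1R (-1.07) were lower. HGF, the ligand of MET, was among the most-read genes that fell.

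In the TGF-beta and BMP pathway 10 of 40 genes (25%) were higher and 5 (12.5%) lower (all genes tested: 11.6% higher and 7.57% lower). TGFBR2, the type II receptor that binds TGF-beta, had 3, 1 and 2 reads in A2780 and 375, 251 and 263 in CP70, 102-fold (interval 46.5 to 278) higher. The activin receptor ACVR2B fell from 235, 273 and 199 reads to 69, 60 and 54 (log2 difference -2.49 ± 0.26 (SE), adjusted p = 1.58e-07), and the ligand TGFB2 fell (-1.91) while TGFB1 was higher (1.13). In the Wnt pathway 11 of 39 (28.2%) were higher and 4 (10.3%) lower. The receptors ROR2 (log2 difference 3.12) and ROR1 (5.49-fold, interval 1.29 to 49.2) were higher. The secreted inhibitors DKK1 (log2 difference -1.73) and DKK3 (26.2-fold, interval 4.14 to 1094) were lower.

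In the Notch pathway 3 of 16 genes (18.75%) were higher and 1 (6.25%) lower (all genes tested: 11.6% higher and 7.57% lower). The coactivator MAML3 had 92, 76 and 48 reads in A2780 and 0, 0 and 0 in CP70, at least 33.8-fold lower. MAML3 overlaps MGST2 on the opposite strand, and both were without reads in CP70. Of 23 target genes of the Hippo effector YAP, 7 (30.4%) were higher and 6 (26.1%) lower (median log2 difference 0.02). MYOF rose from 61, 70 and 34 reads to 1113, 790 and 768 (log2 difference 3.49 ± 0.08 (SE), adjusted p = 3.60e-18), ANKRD1 was also higher (3.42), and the kinase NUAK2 was lower (-2.49).

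Few genes of the housekeeping programmes were called, but the ribosomal protein and oxidative phosphorylation medians lay below the -0.02 of all genes. Of 59 cell cycle genes, 3 were higher and 3 lower, below the share of all genes in both directions. Apart from CDKN1A these were inhibitors and regulators, with CDKN2B (4, 4 and 0 against 28, 18 and 29 reads), CDKN2A (1.64) and CDKN2C (1.15) higher and CDK1 (log2 difference -1.83 ± 0.10 (SE), adjusted p = 9.26e-12) and RB1 (log2 difference -1.14 ± 0.15 (SE), adjusted p = 4.25e-06) lower. Of 77 oxidative phosphorylation subunits 1 was lower, ATP5A1 (log2 difference -1.27 ± 0.11 (SE), adjusted p = 1.58e-08), and 0 higher (median log2 difference -0.27). Of 75 ribosomal protein genes 1 was higher and 3 lower (median -0.44). None of the 33 cholesterol and fatty acid synthesis genes passed at a difference above 1 in limma (median 0.08), their differences running from -0.79 to 0.83.

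Of 49 genes of DNA methylation, histone modification and polycomb, 4 (8.16%) were higher and 5 (10.2%) lower (median log2 difference -0.04). These shares were near those of all genes tested (11.6% higher and 7.57% lower). CBX7, a polycomb reader, rose from 8, 9 and 6 reads to 97, 71 and 72 (log2 difference 2.75 ± 0.32 (SE), adjusted p = 7.11e-07). HDAC2, a histone deacetylase, rose from 385, 446 and 268 reads to 1608, 1258 and 1080 (log2 difference 1.30 ± 0.08 (SE), adjusted p = 5.72e-11), and HDAC9 fell from 261, 425 and 208 reads to 52, 34 and 34 (log2 difference -3.40 ± 0.16 (SE), adjusted p = 5.52e-13). The histone methyltransferase SUV39H1 was lower (-2.33). The maintenance methyltransferase DNMT1 differed by -0.30 (adjusted p = 0.0119).

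Differences were also laid along the chromosomes, because they fell unevenly. For 20 of 23 chromosomes the median log2 difference over genes with over 3 reads lay within 0.15 of 0, and the exceptions were chromosomes 13 (-0.42), 18 (-0.24) and 6 (0.17). When each chromosome was divided into 4 blocks of equal gene number, 83 of 92 blocks had a median within 0.25 of 0, and 4 stood far from the rest. On chromosome 6 the last block, from HDAC2 to PDCD2 (chr6:114254192-170893780, hg19), had a median of 0.92, with 69 of 150 genes higher and 6 lower. On chromosome 13 the block from RB1 to SLITRK5 (chr13:48877880-88348527) had a median of -0.92 and the block from there to CHAMP1 (chr13:90013414-115103101) of -1.04, with 22 of 55 and 29 of 55 genes lower. On chromosome 18 the block from INO80C to TXNL1 (chr18:33032194-54318831) had a median of -0.89, with 16 of 44 genes lower.

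**Figure D5:**
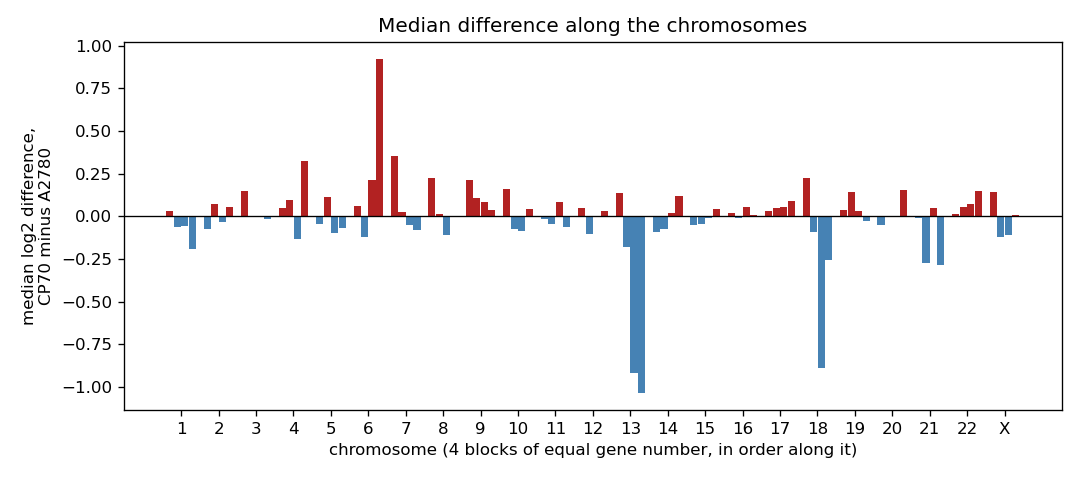
Median log2 difference of CP70 minus A2780 (vertical axis) in 4 blocks of equal gene number along each chromosome (horizontal axis), over genes with over 3 reads in a library. The last block of chromosome 6 (0.92), the last 2 of chromosome 13 (-0.92 and -1.04) and the third of chromosome 18 (-0.89) stand apart from the other blocks.

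Several genes of the lists above lie in these blocks. HDAC2, PERP, MTHFD1L and the ribosomal gene RPS12, all higher, lie in the last block of chromosome 6. RB1, the repair gene ERCC5, the transporter ABCC4 and the ligand EFNB2, all lower, lie in the 2 blocks of chromosome 13, and POLI, ATP5A1 and the ribosomal gene RPL17, all lower, in that of chromosome 18. The log2 differences of RB1 (-1.14), MTHFD1L (1.08), RPS12 (1.08), POLI (-1.28), ATP5A1 (-1.27) and RPL17 (-1.14) were near the medians of their blocks. Those of HDAC2 (1.30), ERCC5 (-1.79), ABCC4 (-2.11) and EFNB2 (-3.48, on few reads) were larger than the medians, and that of PERP (5.38) was the furthest. DNA copy number was not measured in these libraries, and its part in these medians was not tested.

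On a finer scale, 43 runs of at least 4 neighbouring genes of the table were all higher (22 runs) or all lower (21 runs), the longest of 10 genes. That run held 10 gamma protocadherin genes on chromosome 5 (chr5:140729666-140892542, hg19), with log2 differences from -3.17 to -1.42. A run of 8 higher genes at chr17:46652869-46943884 held the HOXB genes from HOXB4 to HOXB9 with LINC03057 and CALCOCO2, and their median was 4.29. A run of 6 higher genes at chr19:52392488-52599018 held ZNF649, ZNF350, ZNF615, ZNF614, ZNF432 and ZNF841, with a median of 5.72. Among the lower runs, 6 genes at chr10:61786056-64028603 (ANK3, CDK1, RHOBTB1, TMEM26, ARID5B and RTKN2) had a median of -6.68, and 6 at chr2:217081768-217560272 (LINC01963, MARCH4, SMARCAL1, RPL37A, IGFBP2 and IGFBP5) a median of -3.55. CDK1 and RPL37A, counted above among cell cycle and ribosomal genes, had neighbours that were lower too. Neighbouring genes that overlap share reads where strand was not used.

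For 10 genes fixed by name, the CP70 minus A2780 difference was tested against the resistant minus sensitive difference of each serous pair. At a difference above 1 in size, 39.9% of all genes differed from the PEA pair and 31.3% from the PEO pair, and 5 of the 10 did so in each case. CDKN1A was lower in CP70 (-4.48) but changed by 1.05 from PEA1 to PEA2 and by 1.25 from PEO1 to PEO4, so that the gaps were -5.53 ± 0.51 (SE), adjusted p = 2.00e-08, and -5.73 ± 0.51 (SE), adjusted p = 1.72e-08. IFIT1 was lower in CP70 (-1.38) and changed by 1.37 from PEA1 to PEA2 and by 5.83 from PEO1 to PEO4, and the gap to the PEO pair was -7.21 ± 0.28 (SE), adjusted p = 5.62e-14. VIM differed by 0.45 in CP70 and by -4.47 in the PEA pair, a gap of 4.92 ± 0.18 (SE), adjusted p = 4.03e-14. EPCAM was higher in CP70 (3.77) and by 4.60 in the PEA pair, with a gap of -0.82 ± 0.25 (SE), adjusted p = 0.00783, and differed from the PEO pair by 3.31 ± 0.25 (SE), adjusted p = 1.35e-09. For MDM2, SLC31A1 and PAX8 neither gap passed, and PAX8 had few reads in A2780 and CP70, as stated above. The comparisons with the 2 serous pairs share the CP70 and A2780 libraries.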

How the data were processed

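RNA-seq libraries of rRNA-depleted total RNA had been prepared by the authors with a directional kit, 3 per line, and the submitters' processing notes name Bowtie2, featureCounts and limma with hg19. Reads were assigned by the authors to hg19 genes, and whether the counting used strand is not given in the sources used here. The deposited values are log2 values of CPM with 0.5 reads added, scaled to a normalized library size. Whole reads were recovered from 100% of the values (tolerance 0.02), and 0 per-sample columns were left unused.

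The main test was limma 3.58.1 with an intensity trend in R 4.3.3, fitted to the 18 libraries together with a coefficient for each line and Benjamini-Hochberg adjustment over 12853 genes. Reads and positions were handled with Python 3.11.15. Calls used an adjusted p below 0.05 with a log2 difference above 2, and above 1 for the 41 gene lists. By the list rule 11.6% of all genes were higher and 7.57% lower, and every list count is to be read beside these shares. In data simulated for CP70 minus A2780 over 12853 genes, 98 of 100 genes changed by 1.5 log2 units and 100 of 100 changed by 3 were recovered, with 0 unchanged genes called. The changed genes were drawn only from those with a mean above 2 log2 CPM over the 18 libraries. All genes were given the same extra spread between libraries. The recovery therefore does not extend to genes with few reads or to switched genes. Since 3 reads are 0.985 CPM in A2780 and 0.664 CPM in CP70, lower levels were not resolved, and a gene with 0 reads in all 6 libraries has a log2 difference of -0.55 from depth alone. List medians include such genes unless a read limit is stated. Exact intervals of ratios and the 3-read floor cover counting error only, and SEs the spread between libraries.

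Positions are from GENCODE for GRCh37, matched by Ensembl gene for 12642 of 12853 genes, and promoters from RefSeq, matched by symbol. Named genes were the 6 highest and 6 lowest, the 8 switched off and 8 on with the highest CPM in the lowest library of the line that reads them, up to 3 per direction in each list, the 6 with the highest CPM per direction and genes fixed by name. Some genes fixed by name are not reported here. Other list members and neighbours were chosen after their values were seen. The comparison, the genes and the lists were chosen with earlier results of these data known. Alternatives were another normalization, pseudocount, filter, weighting, threshold, a block and each library left out.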

Additional observations from a re-analysis of the deposited data

Results flagged for a closer look

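For 7 of the 10 genes fixed by name, the change from A2780 to CP70 differed from the change in at least 1 other pair by over 1 log2 unit. The test was of the difference itself (limma, Benjamini-Hochberg adjustment over all genes). By this rule 39.9% of all genes differed from the PEA pair and 31.3% from the PEO pair. The share of all genes differing from either pair was not counted. CDKN1A differed by -5.53 from the PEA pair and by -5.73 from the PEO pair. IFIT1 differed by -2.75 from the PEA pair and by -7.21 from the PEO pair. VIM differed by 4.92 from the PEA pair, where it fell, and by -1.26 from the PEO pair, where it held 31 to 120 reads per library. EPCAM differed by 3.31 from the PEO pair and CDH2 by -1.14, with 3 to 17 CDH2 reads in the PEO libraries. FAS differed by -1.64 from the PEA pair and ATP7B by 1.97, with 1 to 13 ATP7B reads in the PEA libraries.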

How the results depend on the processing

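The counts of 728 higher and 437 lower genes became 421 and 267 when a mean level above 1 log2 CPM was required, 1497 and 973 at a log2 difference above 1, and 2847 and 2277 with the adjusted p alone. The 59 switched-off genes became 97 with at least 10 reads asked of A2780, 38 with at least 60, 22 with 0 reads in CP70 and 95 with at most 10, and the 147 switched-on genes became 265, 79, 43 and 256 under the mirrored limits. With a mean level above 1, the higher genes fell to 1 for the p53 targets, 11 for the interferon-stimulated genes, 8 for the epithelial, 4 for the mesenchymal, 12 for the matrix and 20 for the chromosome 19 zinc finger genes, and the lower genes to 0 for the epithelial and 2 for the zinc finger genes, since fewer genes were tested. The 4 lower epithelial genes became 2 with 2 reads added, and 1 among genes over 3 reads in a library, a filter chosen after seeing the data that also left 5 of the 10 lower zinc finger genes. The 34 higher zinc finger genes became 20 under quantile normalization, whose cause was not tested. Without single libraries the higher genes ranged from 728 to 741, the lower from 425 to 447, the switched-off from 59 to 80 and the switched-on from 148 to 164. With each library left out in turn, 3 to 9 of the 223 named genes lost their call, among them RPL9 without A2780 library 1 (-0.79) and HIST2H2BA without A2780 library 3 (0.65). ATP7A gained a call without CP70 library 3 (-0.77) and with voom weights (-0.58), and PAX8 without A2780 library 3 (0.75) or CP70 library 3 (0.89). No named gene reversed. Under quantile normalization 11 of the 223 lost their call. The median over genes with over 3 reads moved from 0.01 to -0.02 under quantile normalization and to 0.04 with total reads.

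Libraries with the same number did not deviate together (correlations 0.030, 0.084 and -0.057 for numbers 1 to 3), so the numbers do not pair them. In the fit with the replicate block within the pair, 728 genes were higher and 437 lower, with 59 switched off and 147 on, and 1 of the 223 named genes, GCLC, lost its call. Depth limits statements on genes with few reads, since 890 of the 12853 genes had at most 3 reads in all 6 libraries, and 24 of them passed at a log2 difference above 2.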

Other observations

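Death and inflammation genes were also compared. Of 40 genes of the BCL2 family, caspases and related effectors, 7 (17.5%) were higher and 2 (5%) lower (median log2 difference 0.34). Over all genes tested, 11.6% were higher and 7.57% lower. MLKL, the executioner of necroptosis, rose from 1, 4 and 2 reads to 124, 79 and 66 (log2 difference 4.53 ± 0.32 (SE), adjusted p = 3.90e-10). BCL2L11, the BH3-only death gene BIM, rose from 15, 34 and 11 reads to 159, 121 and 109 (log2 difference 2.26 ± 0.26 (SE), adjusted p = 4.34e-07). The inhibitor of apoptosis BIRC3 had 3, 0 and 1 reads in A2780 and 20, 13 and 18 in CP70, while its neighbour BIRC2 fell (log2 difference -1.08 ± 0.14 (SE), adjusted p = 2.22e-06). Of 31 NF-kB targets and cytokines, 6 (19.35%) were higher and 2 (6.45%) lower. CSF1, the macrophage growth factor, rose from 2, 3 and 4 reads to 101, 67 and 70 (log2 difference 3.97 ± 0.26 (SE), adjusted p = 1.22e-10), and PTX3 had 10, 21 and 5 reads in A2780 and 0, 0 and 0 in CP70. LCN2, called lower, had at most 2 reads in any library.

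Of 39 glycolysis and hypoxia genes, 7 (17.95%) were higher and 4 (10.3%) lower (all genes tested: 11.6% higher and 7.57% lower). The median log2 difference was 0.10. The neuronal enolase ENO2 had 2, 3 and 2 reads in A2780 and 394, 250 and 235 in CP70, 86.1-fold (interval 41.6 to 215) higher. SLC16A3, the lactate exporter MCT4, had 1, 2 and 2 reads in A2780 and 282, 199 and 157 in CP70, 87.5-fold (interval 37.3 to 270) higher. The hypoxia-induced gene NDRG1 (-4.31) and the glucose transporter SLC2A3 (-1.97) were lower. Of 35 genes of serine and glycine metabolism and targets of the stress factor ATF4, 3 (8.57%) were higher and 6 (17.1%) lower (median -0.36). GLDC, which cleaves glycine in mitochondria, rose from 22, 35 and 11 reads to 265, 175 and 172 (log2 difference 2.70 ± 0.43 (SE), adjusted p = 3.39e-05), and CHAC1, which degrades glutathione, fell from 35, 42 and 19 reads to 7, 9 and 4 (log2 difference -2.73 ± 0.46 (SE), adjusted p = 6.34e-05).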
